A study of Mus musculus with 10 samples.

Results

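The comparison described here is acetaminophen-treated over control mouse liver at 3 h after dosing, the earliest time point of the series. It was measured on the 2 arrays whose titles name that time, out of 10 arrays in all, and those arrays hold RNA of 4 livers out of 20. Female C57BL/6 mice aged 8 weeks went without food for 24 h. Acetaminophen was then injected once into the peritoneum, at 350 mg/kg in phosphate-buffered saline, and controls were given the saline alone. All groups, controls included, had this fast before dosing, so every ratio below is between animals fasted alike up to that point. Whether they fed after dosing is not known here. Replicate 1 set treated mouse 1 against control mouse 2, and replicate 3 set treated mouse 3 against control mouse 3. Each liver came from its own numbered mouse. The treated liver was always labelled with Cy5 and the control with Cy3, so at this time point a dye effect of a probe and an effect of the drug cannot be told apart. The later time points used for comparison, 8 h and 24 h, have 2 arrays each of the same design.

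Acetaminophen is a pain reliever that is safe at usual doses and injures the liver in overdose. Hepatocytes around the central vein convert part of the drug, largely with the cytochrome P450 enzyme CYP2E1, to a reactive quinone imine. Glutathione captures this metabolite until the store runs low. The metabolite then binds to proteins, mitochondria produce oxidants, and the stress kinase JNK, whose best known target is the transcription factor JUN, is activated. Cells meet such stress with several transcription programmes. Among them are immediate early genes, the integrated stress response through ATF4, metal and antioxidant responses through MTF1 and NRF2, and the chaperone responses of the cytosol and the endoplasmic reticulum.

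The spots well above background made up 60.4% of the control and 45.6% of the treated channel on replicate 1, and 78.4% and 70.6% on replicate 3, so replicate 1 was the dimmer array, most of all in its treated channel. No spot was saturated on either. Their number, 2, limits the precision. The arrays lay on different slides and were scanned on different days. Slides coincide in part with time points: slide 4 held only 3 h and 24 h arrays, and slide 1 only 3 h and 8 h arrays. A fit with slides as a block, given below as an alternative, also leaves fewer residual degrees of freedom. Where a call ended in it, a slide effect and lost precision cannot be told apart. Ratios are on the log2 scale, treated over control, with n = 2 arrays, and are given as the mean ± SE of a fit that pools the spread over all 10 arrays. A gene is called when limma's p, adjusted by the Benjamini-Hochberg method over all genes tested, is at most 0.05, and "rose" and "fell" are used only of called genes. Liver levels are log2 intensities of each channel after loess within and Aquantile scaling between arrays, and they compare livers for 1 gene, not genes with each other. Hepatocyte markers were bright in all 4 livers. Albumin stood at 16.94 and 17.25 in the control livers and at 17.69 and 17.59 in the treated livers, a log2 ratio of 0.54 ± 0.19 (limma, adjusted p = 0.124).

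Of 24012 genes tested, 808 rose (3.36%) and 980 fell (4.08%), so 7.45% were called. At an unadjusted p up to 0.05, 2927 genes were higher and 2941 lower, the background for the list counts given at that threshold. At least 2-fold rises numbered 251 against 137 falls, and at least 4-fold rises 48 against 10. At least 16-fold there were 7 rises and 0 falls. Of the 1788 called genes, 1787 had the same direction on both arrays and 1 rested on a single array. Over 23992 genes the ratios on replicate 1 and replicate 3 had a correlation of 0.68, a description across genes that are not independent of each other. In the levels, 752 of the 808 genes that rose were higher in both treated livers than in either control liver, against 19.6% of all genes tested. The lower counterpart held for 971 of the 980 that fell, against 24% of all. The levels come from the arrays that gave the calls. The separation and the shared direction of called genes thus follow in part from how they were selected, and are no separate support. Without replicate 1 the counts were 264 and 141, and without replicate 3 they were 854 and 273.

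**Figure D1:**
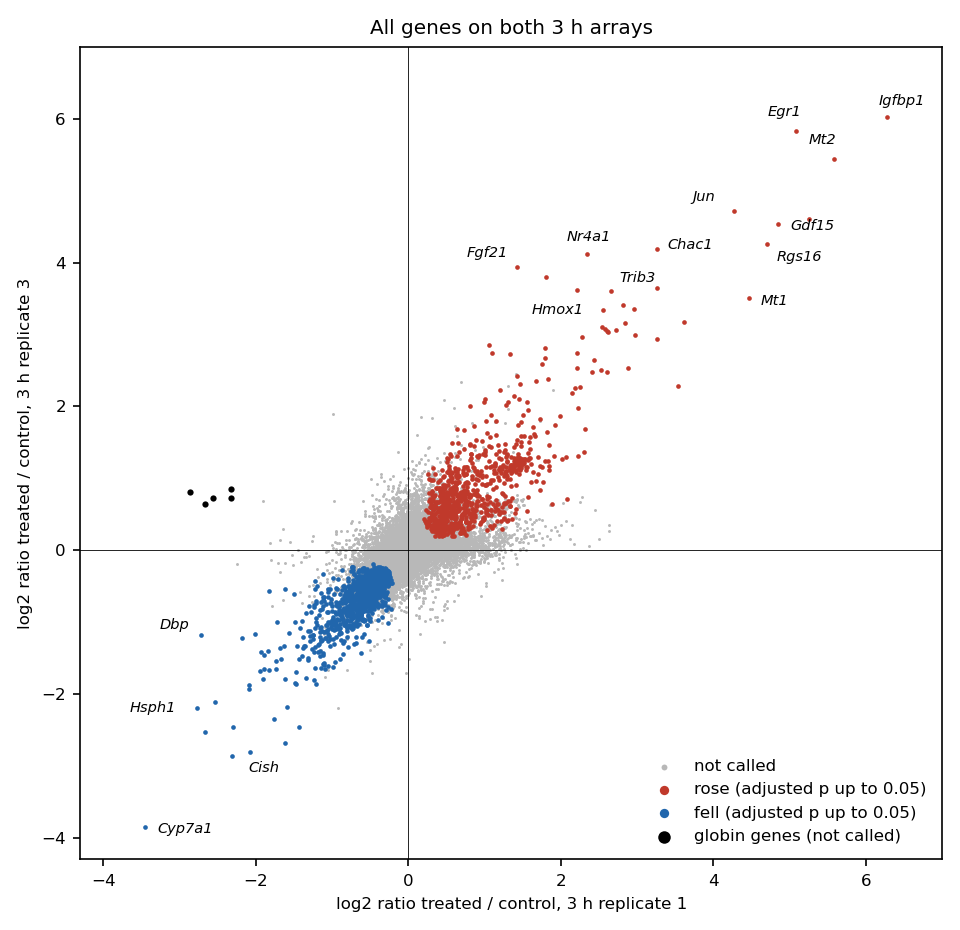
Log2 ratio of treated over control liver for each gene on replicate 1 (x axis) and replicate 3 (y axis), with red points for genes that rose, blue for genes that fell and grey for genes not called. Igfbp1, at 6.28 and 6.02, lies farthest to the upper right and Cyp7a1, at -3.46 and -3.85, farthest to the lower left, and the 5 adult globin genes (black) are negative on replicate 1 and positive on replicate 3.

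The choice of scaling bears on every direction below. Loess, used here, removes any trend of the ratio with intensity. Centring each array on its median does not, and it lowered the median of all genes from 0.00 to -0.24. Lists of abundant messages moved by more: the median of 50 respiratory chain genes went from -0.02 to -1.20 and that of 53 cytosolic ribosomal protein genes from -0.09 to -1.26. With median centring 1018 genes rose and 5020 fell. The scanning software's own dye-corrected ratios gave 487 rises and 576 falls, with a median of all genes of -0.06. Which trend with intensity is due to dye and which to RNA cannot be told apart with dyes in 1 orientation.

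**Figure D2:**
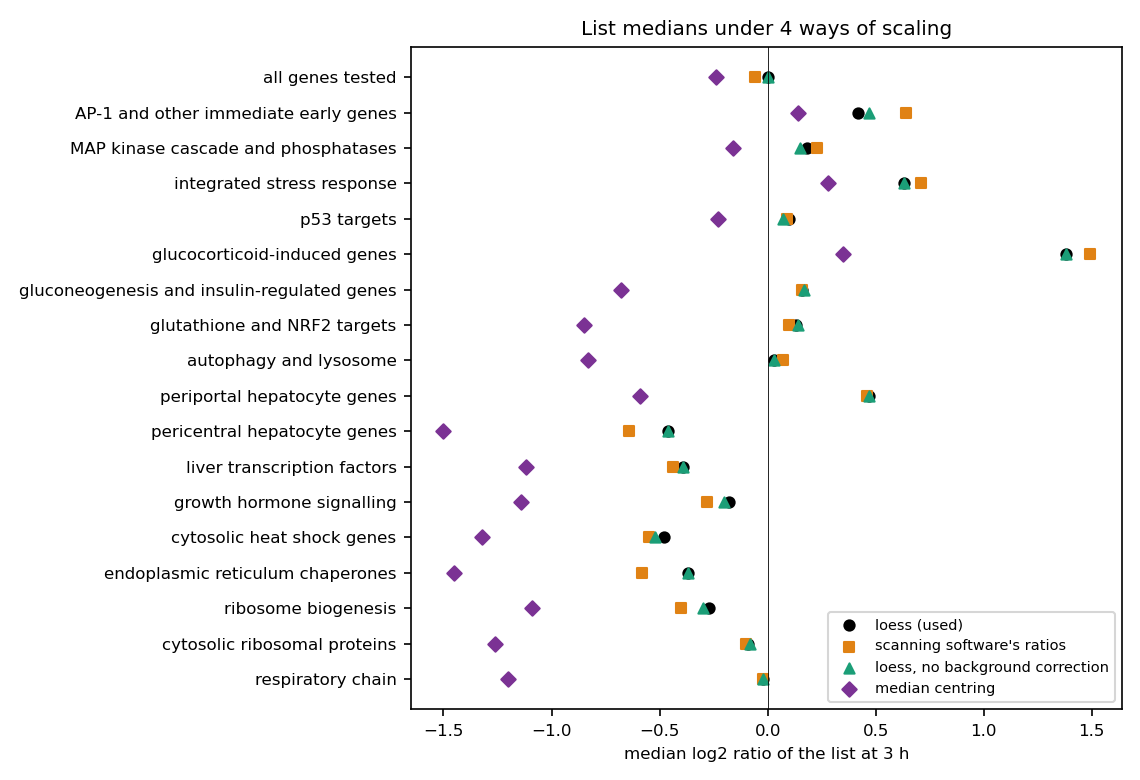
Median log2 ratio at 3 h of all genes tested and of 17 gene lists (rows) under loess, the software's ratios, loess without background correction, and median centring. The first 3 lie closer to one another than to median centring, which is lower for every list shown, for example at -1.20 for the respiratory chain, where loess gave -0.02.

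Immediate early genes are transcribed soon after a stimulus by factors already present in the cell. Of 43 tested in liver, 18 rose and 1, Ier5l, fell by 0.42 ± 0.10 (limma, adjusted p = 0.0433). Their median log2 ratio was 0.42, or 0.14 with median centring, beside 0.00 for all genes. Egr1, a zinc finger transcription factor, stood at 7.95 and 7.85 in the control livers and at 13.04 and 13.68 in the treated livers. The treated livers lay far above both controls, and the ratio was 5.46 ± 0.26 (limma, adjusted p = 0.000128), or 44.0-fold. Jun, the AP-1 subunit that JNK phosphorylates, stood at 9.62 and 9.63 in the controls and at 13.90 and 14.34 after the drug, with a ratio of 4.49 ± 0.17 (limma, adjusted p = 5.67e-05). Its probe lies at chr4:94716928-94716987 of mm9. Its usual partner Fos, dim in the controls at 6.89 and 6.17, was at 8.70 and 9.97 in the treated livers, with a ratio of 2.80 ± 0.42. The nuclear receptor gene Nr4a1 had ratios of 2.35 and 4.12 on replicates 1 and 3, which differ by more than those of Btg2, an antiproliferative gene, at 2.97 and 2.99. The other members that rose were Plk3, Btg1, Klf6, Nfil3, Jund, Ier2, Klf9, Zfp36, Klf10, Zfp36l2, Zfp36l1, Csrnp1 and Srf. Several members of the same class did not pass: Myc was at 0.27 ± 0.18, Arc at 0.00 ± 0.15 and Ier3 at 0.16 ± 0.17.

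Of 35 genes of the MAP kinase cascade and its phosphatases, 8 rose and 0 fell in the limma fit, and at an unadjusted p up to 0.05 10 were higher and 2 lower. The list's median was 0.18, and -0.16 with median centring. Dusp1, the phosphatase that switches off JNK and p38, stood at 7.71 and 8.40 in the controls and at 11.24 and 10.68 in the treated livers, a ratio of 2.91 ± 0.25 (limma, adjusted p = 0.0011). All 3 Gadd45 genes, whose products bind an upstream kinase of the pathway, rose: Gadd45g by 2.27 ± 0.36, Gadd45b by 2.10 ± 0.12 and Gadd45a by 2.03 ± 0.31. Gadd45b was alike on both arrays at 2.22 and 1.98, whereas Gadd45a was at 1.33 and 2.73. The calls of Egr1, Jun, Btg2, Nfil3, Dusp1 and Gadd45b held in every alternative that gave a value. Of the MAP kinase genes 6 rose without replicate 1 and 3 without replicate 3. With slides as a block the calls of Nr4a1, Gadd45a and Gadd45g ended, and 10 immediate early and 2 MAP kinase genes rose.

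The integrated stress response is the programme in which phosphorylated eIF2 favours translation of ATF4, which with CHOP (Ddit3) activates genes for amino acid supply and for recovery of translation. Of 35 genes tested, 14 rose and 0 fell in the limma fit, and at an unadjusted p up to 0.05 19 were higher and 0 lower. The median was 0.63, and 0.28 with median centring. Gdf15, a circulating stress hormone, was at 8.20 and 9.43 in the control livers and at 13.04 and 13.97 in the treated livers, so the lower treated liver was above the higher control by more than the controls differed. Its ratio was 4.69 ± 0.22 (limma, adjusted p = 0.000128), or 25.9-fold, at chr8:73153293-73153352 of mm9. Chac1, an enzyme that cleaves glutathione, went from 6.98 and 7.67 to 10.24 and 11.85 (3.72 ± 0.29). Trib3, a pseudokinase that restrains ATF4 and AKT, went from 8.23 and 8.36 to 10.88 and 11.97 (3.13 ± 0.21). Atf3 had ratios of 2.21 and 3.61 (2.91 ± 0.40). Fgf21, a liver hormone of fasting and stress, had ratios of 1.42 and 3.93 (2.68 ± 0.53), and its control signal was well above background on only 1 array. Further along the list, Herpud1 was at 2.22 ± 0.12, Ddit3 at 1.89 ± 0.20, Atf4 itself at 1.74 ± 0.13 and Ppp1r15a, the subunit that directs dephosphorylation of eIF2, at 1.63 ± 0.10. Slc38a2, Ddit4, Cebpb, Sesn2 and Gpt2 also rose. Asns, the asparagine synthetase and a standard ATF4 target, had ratios of 0.16 and 1.85 and was not called (1.01 ± 0.44). The calls of Gdf15, Chac1 and Trib3 held in every alternative that gave a value, and those of Atf3 and Fgf21 ended without replicate 3.

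CREB, ATF and C/EBP factors are known to drive several of the genes above. Promoters were therefore searched for 8 short motifs on both strands. Promoter windows run from 250 bases before to 50 bases after the gene start and come from RefSeq (GRCm38.p6). Of 251 genes that rose at least 2-fold, 172 matched, with 216 windows, and some windows of 1 gene overlap. The cAMP response motif TGACGTCA was present in 6.02% of these windows, in 2.52% of the 17109 windows of all 13751 matched genes, and in 0 of the 125 windows of 95 genes that fell at least 2-fold. The composite motif of C/EBP and ATF factors, TGATGNAA, was present in 7.87%, 2.88% and 2.4% of the same groups. For all 808 genes that rose, the shares were 4.33% and 5.07%. The shares of the AP-1 motif TGANTCA were 7.87%, 6.4% and 8%, in genes that rose at least 2-fold, in all, and in genes that fell at least 2-fold. For the Egr motif GCGNGGGCG they were 12.5%, 8.64% and 8.8%, and for the E-box CACGTG 10.2%, 8.67% and 12%. Matches of different motifs can overlap, and no test was run on these shares.

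The sites below show what these letters look like in place, for the 6 genes with the largest ratios that hold the cAMP response motif in the 250 upstream bases, in capitals, 5′ to 3′ on the strand of the gene. The genes were chosen for the motif and the size of the ratio, after their values were seen. The site of Btg2 begins 166 bases before the gene start (chr1:134079303-134079332) and that of Dusp1 143 bases before it (chr17:26508597-26508626), and both have the same 8 letters in different surroundings.
Btg2: gttcccaataaTGACGTCAgtgagcgatga
Dusp1: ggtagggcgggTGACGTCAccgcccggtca
Arl4d: gccgcgtcgtgTGACGTCAcgagagggttt
Maff: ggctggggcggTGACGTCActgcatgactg
Ppp1r15a: cgcctctccggTGACGTCAgcacagcgccg
Retreg1: gcggccaggccTGACGTCAcaaggcaccca
The log2 ratios of these genes were 2.98 for Btg2, 2.91 for Dusp1, 2.83 for Arl4d, 1.95 for Maff, 1.63 for Ppp1r15a and 1.47 for Retreg1. The composite motif is shown in the same way. In all 6 genes it reads on the opposite strand, so the capitals are its reverse complement, and in 5 of them the letters are identical. The site of Chac1 lies at chr2:119351038-119351067, 193 bases before the start, and that of Atf3 at chr1:191183425-191183454, 110 bases before it.
Chac1: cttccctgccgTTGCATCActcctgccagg
Atf3: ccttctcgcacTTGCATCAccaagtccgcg
G6pc: cctgaacatgtTTGCATCAacctactgatg
Fgf21: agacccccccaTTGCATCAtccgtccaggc
Arid5a: tcttgagtttcTTACATCAgcccctagctg
Gadd45g: tgccgcctcatTTGCATCAgaaagcgggcg
Of these genes, Arid5a had a log2 ratio of 2.31. The stress genes Chac1, Atf3 and Fgf21 share the 8 letters with G6pc, the glucose-releasing phosphatase, and with Gadd45g.

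Metallothioneins are small cysteine-rich proteins that bind zinc and copper and scavenge oxidants, and they are switched on by zinc through MTF1 and by glucocorticoids. Mt2 stood at 11.89 and 11.96 in the control livers and at 17.47 and 17.41 in the treated livers. Each pair was tight, and the ratio was 5.51 ± 0.42 (limma, adjusted p = 0.00072), or 45.7-fold. Mt1 was at 13.28 and 13.87 in the controls and at 17.74 and 17.37 after the drug, a ratio of 3.98 ± 0.42 (limma, adjusted p = 0.00234). The calls of both held in every alternative. Of 24 genes of zinc handling tested, only these 2 rose. The zinc exporters Slc30a5 and Slc30a6 fell by 0.65 ± 0.09 and 0.35 ± 0.07. Mtf1 itself fell by 0.49 ± 0.11, with its other probe at -0.13. These 3 falls were not called with the software's ratios, without background correction, with slides as a block, or without either replicate. The list's median was 0.02, and -0.47 with median centring. The 250 bases upstream of both genes are shown for the letters searched as the metal response motif, TGCNCNC, in capitals on either strand. These letters occur 5 times before Mt2 (chr8:94172368-94172617) and 1 time before Mt1 (chr8:94178839-94179088).
Mt2: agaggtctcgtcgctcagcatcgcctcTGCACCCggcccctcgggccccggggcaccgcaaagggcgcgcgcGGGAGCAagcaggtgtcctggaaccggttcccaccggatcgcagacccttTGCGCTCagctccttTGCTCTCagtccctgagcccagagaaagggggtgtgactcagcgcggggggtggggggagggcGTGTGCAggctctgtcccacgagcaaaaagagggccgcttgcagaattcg
Mt1: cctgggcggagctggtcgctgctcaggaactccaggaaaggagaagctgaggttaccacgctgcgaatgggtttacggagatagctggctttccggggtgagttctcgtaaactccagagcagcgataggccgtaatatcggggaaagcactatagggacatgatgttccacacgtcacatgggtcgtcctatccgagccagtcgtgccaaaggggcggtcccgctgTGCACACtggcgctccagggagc
The letters are few and allow any base at N, so a match need not be a metal response element. Of all windows 57% hold them, as do 63.9% of those of genes that rose at least 2-fold. Bases farther upstream were not searched, so the counts of 5 and 1 hold for these stretches only.

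Targets of NRF2, which is released when electrophiles modify its sensor KEAP1, rose in part. Of 39 glutathione and NRF2 genes tested, 6 rose and 0 fell in the limma fit, with 13 higher and 0 lower at an unadjusted p up to 0.05. The median was 0.13, and -0.85 with median centring. Hmox1, which degrades haem, was at 9.27 and 9.73 in the controls and at 11.82 and 13.07 in the treated livers (2.95 ± 0.19; limma, adjusted p = 0.00034). A dimmer Hmox1 probe gave 1.34. Maff and Mafk, the small MAF partners of NRF2, rose by 1.95 ± 0.36 and 1.02 ± 0.09, and Osgin1 by 1.32 ± 0.28. Pgd and Gsta4 were the other members that rose. Gclc, the catalytic subunit that limits glutathione synthesis, had ratios of 0.89 and 1.26 and missed the threshold (1.08 ± 0.27; limma, adjusted p = 0.0553). The textbook targets Nqo1 at 0.11 ± 0.24, Txnrd1 at 0.03 ± 0.14 and Gclm at -0.16 ± 0.20 were near 0. The antioxidant response motif TGANNNNGC was present in 39.8% of the windows of genes that rose at least 2-fold and in 42.2% of all. Without replicate 1, 3 of these genes rose, and with slides as a block 2. The call of Hmox1 held in every alternative, and that of Maff ended with median centring, slides as a block, the 3 h arrays alone, or without replicate 3.

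Genes induced by glucocorticoids, the adrenal hormones of stress and fasting, had the highest median of the 38 pathway lists, 1.38, and 0.35 with median centring. The lists were chosen with earlier results of these data known, so this rank is a description only. Of 27 tested, 14 rose and 3 fell. Several of them, among them Mt1, Mt2, Dusp1 and Sds, are also counted in other lists. Angptl4, an inhibitor of lipoprotein lipase, went from 11.47 and 10.69 to 14.28 and 14.10 (3.11 ± 0.33; limma, adjusted p = 0.00244). Lpin1, a phosphatidate phosphatase and coactivator, went from 8.17 and 7.98 to 10.77 and 11.04 (2.83 ± 0.24). Zbtb16, Ddit4, Klf9, Cebpd, Cebpb, Errfi1 and Fkbp5 rose as well. The members that fell were the clock gene Per2 by 1.34 ± 0.26, the receptor Nr3c1 by 0.45 ± 0.10 and its cochaperone Fkbp4 by 0.48 ± 0.12. Without either replicate and with slides as a block none of this list fell, and of 23 alternatives Nr3c1 kept its call in 6 and Fkbp4 in 3. Tsc22d3, a widely used marker of the receptor, was not called, at -0.57 ± 0.18. Hormone levels were not measured on these arrays.

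Several gluconeogenic genes and genes that insulin represses through FOXO1 rose over controls that had the same fast before dosing. Igfbp1, whose secreted product binds insulin-like growth factors, stood at 10.33 and 10.60 in the controls and at 16.61 and 16.62 in the treated livers, the largest ratio of any called gene with a symbol (6.15 ± 0.51, 70.9-fold; limma, adjusted p = 0.00105). Its probe lies at chr11:7102442-7102501 of mm9. G6pc went from 10.86 and 10.48 to 13.58 and 13.54 (2.89 ± 0.27), and Pck1, the other control point of gluconeogenesis, from 14.45 and 13.79 to 15.74 and 15.81 (1.66 ± 0.15). Sds, which feeds serine into pyruvate, rose by 2.48 ± 0.14. The transcription factor genes Foxo3 and Foxo1 were at 3.00 ± 0.13 and 1.53 ± 0.15, and the coactivator gene Ppargc1a at 1.09 ± 0.17. A dimmer Foxo3 probe was at 0.09, so the probes of that gene disagree. Of the 35 list members tested 11 rose, and Irs1, an insulin receptor substrate, and Pfkfb1, a regulator of glycolysis, fell by 1.05 ± 0.18 and 0.91 ± 0.17. The list's median was 0.16, and -0.68 with median centring, under which 2 members rose, 7 fell, the calls of G6pc, Pck1 and Sds ended and that of Igfbp1 held. Without replicate 1, 7 members rose.

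Genes of fat metabolism are to be read against the same share of all genes called, 7.45%. Of 43 genes of fatty acid oxidation and PPAR alpha, 4 rose (Angptl4, Lpin1, Fgf21, and Lpin2 at 2.17 ± 0.21) and 1 fell, the thioesterase gene Acot4 by 0.96 ± 0.15. The median was -0.14 (-1.30 with median centring), and the core enzyme gene Cpt1a stood at 0.08 ± 0.19. Of 27 fatty acid synthesis genes 3 fell: the elongase Elovl6 by 1.56 ± 0.29, Mid1ip1, an activator of acetyl-CoA carboxylase, by 1.31 ± 0.24, and the nuclear receptor Nr1h3 by 0.48 ± 0.11. Their median was 0.09, and -0.81 with median centring. Angptl8, an insulin-induced secreted protein, fell by 1.89 ± 0.29. Of 27 cholesterol synthesis genes none was called by limma, with 1 higher and 4 lower at an unadjusted p up to 0.05 and 0 and 16 called with median centring. The 2 largest were Idi1, at -0.47 and -1.72 on the arrays, and Mvd, at -0.45 and -1.34. Of 32 autophagy and lysosome genes, 7 rose and 0 fell, with 8 higher and 4 lower at an unadjusted p up to 0.05. The kinase that starts autophagy, Ulk1, had ratios of 1.72 and 1.82 (1.77 ± 0.13; limma, adjusted p = 0.000648). Gabarapl1 (0.94 ± 0.18), Map1lc3b (0.79 ± 0.08) and the cargo receptor Sqstm1 (0.70 ± 0.16), whose products coat the autophagosome or bring cargo to it, rose with loess and turned to -0.27, -0.31 and -0.33 with median centring. The median of this list was 0.03, and -0.83 with median centring, and 2 members rose without either replicate.

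Of 30 p53 targets, 8 rose and 3 fell, with a median of 0.10 (-0.23 with median centring). Trp53inp1, a partner of p53 in stress, had ratios of 3.26 and 3.64 (3.45 ± 0.12; limma, adjusted p = 5.67e-05), and its second probe gave 1.18. Cdkn1a, which encodes the cell cycle inhibitor p21, stood at 7.15 and 7.17 in the controls and at 10.77 and 10.35 in the treated livers (3.40 ± 0.27). The other probes of Cdkn1a ranged down to -0.05, so this value is that of its brightest probe. The other members that rose were Gdf15, Btg2, Plk3, Gadd45a, Sesn2 and Sesn1, of which the first 5 also belong to lists above. Zmat3, Aen and Ccng1, which are common p53 targets, fell by 0.51 ± 0.10, 0.42 ± 0.07 and 0.42 ± 0.06, and Mdm2 was at 0.69 ± 0.19 (not called). Without replicate 1, with slides as a block or with the 3 h arrays alone none of the 30 fell, and without replicate 3 1 did. Of 32 genes of cell cycle entry and replication, 2 rose (Cdkn1a and Cdt1) and 2 fell, with a median of 0.15 (-0.19 with median centring). Of the falls, cyclin D1 (Ccnd1) went from 10.02 and 10.76 to 8.86 and 9.55, by 1.19 ± 0.15, and its kinase Cdk4 fell by 0.55 ± 0.11. Of 22 mitosis genes, 2 rose (Hmgb2 and Cdk1) and 0 fell. Their median was 0.11, and 0.12 with median centring, under which none was called. Of 35 genes of the Bcl2 family and cell death, Bcl2l2 fell by 0.41 ± 0.09 and 0 rose, with 2 higher and 8 lower at an unadjusted p up to 0.05.

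**Figure D3:**
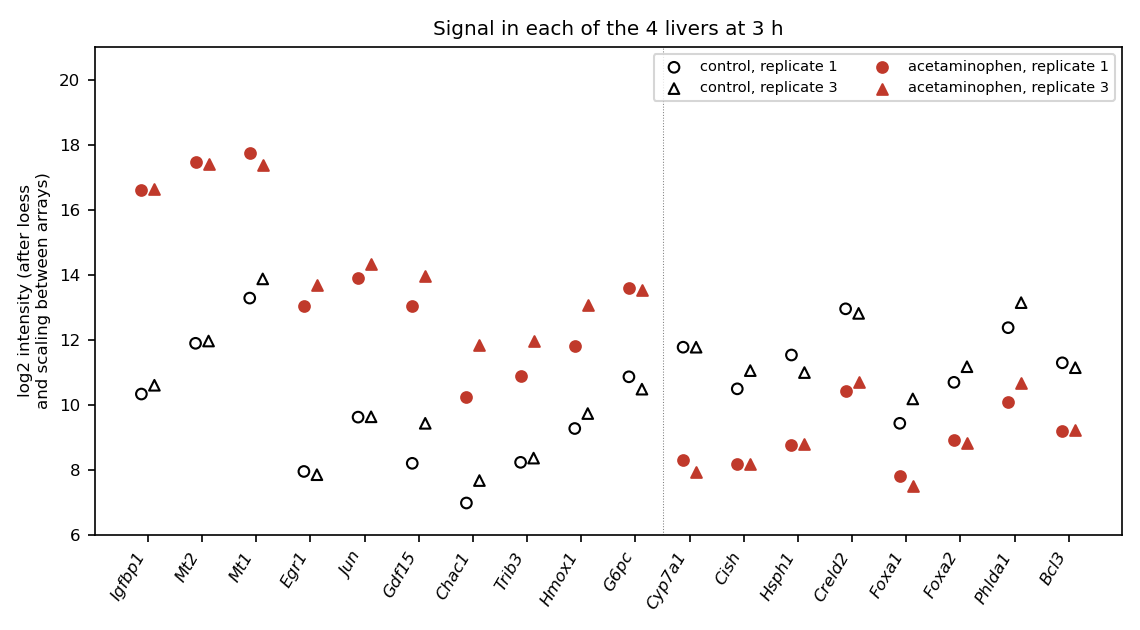
Log2 intensity (y axis) of 18 genes in each of the 4 livers at 3 h, with open black symbols for control and filled red symbols for acetaminophen livers, circles for replicate 1 and triangles for replicate 3. To the left of the dotted line both treated livers lie above both controls, for Igfbp1 at 16.61 and 16.62 against 10.33 and 10.60, and to its right both lie below, for Cyp7a1 at 8.31 and 7.92 against 11.77 and 11.77.

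Chaperone genes fell in both compartments. In the cytosol, heat shock proteins fold nascent and damaged proteins under the control of HSF1. Of 33 tested, 12 fell and 0 rose in the limma fit, with 20 lower and 1 higher at an unadjusted p up to 0.05, and the median was -0.48 (-1.32 with median centring). Hsph1, the nucleotide exchange factor of HSP70, stood at 11.53 and 10.99 in the controls and at 8.75 and 8.79 in the treated livers (-2.49 ± 0.16; limma, adjusted p = 0.000365). Chordc1 (-1.64 ± 0.13), Hsp90aa1, the inducible HSP90 (-1.62 ± 0.26), and the HSP40 gene Dnaja1 (-1.36 ± 0.18) also fell, as did Cacybp, Ahsa1, Stip1, Hspa4l, Dnajb2, Ptges3, St13 and Fkbp4. Hspa1a, the inducible HSP70, was at -0.60 and -0.45 and was not called. Without replicate 1, 4 members fell, and with slides as a block 4. The heat shock motif GAANNTTC, a pair of inverted heat shock factor units, was present in 12% of the 125 windows of genes that fell at least 2-fold, in 6.48% of all windows and in 2.78% of those of genes that rose at least 2-fold. These shares count windows, some of which overlap within 1 gene, and 15 of the 125 held it. Of the 95 matched genes that fell at least 2-fold, 7 had it wholly within the 250 upstream bases. A share by gene was not set against all genes. The site of Dnaja1, the only one of the heat shock list among the 6 with the largest falls, lies at chr4:40722333-40722362, 124 bases before the start. It is shown with that of Rtp3, which had the largest fall of the 7 (-1.52) and is no chaperone, the motif in capitals.
Rtp3: tttggactccaGAACTTTCtccctcactag
Dnaja1: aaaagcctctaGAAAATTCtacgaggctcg

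Endoplasmic reticulum chaperones, which the unfolded protein response induces through ATF6 and XBP1, fell as well. Of 35 tested, 12 fell and 0 rose in the limma fit, with 21 lower and 0 higher at an unadjusted p up to 0.05. The median was -0.37, and -1.45 with median centring. Creld2 stood at 12.95 and 12.81 in the controls and at 10.42 and 10.69 in the treated livers (-2.32 ± 0.18; limma, adjusted p = 0.000767). Sdf2l1 fell by 1.58 ± 0.18, the secreted chaperone gene Manf by 1.40 ± 0.20 and Syvn1, the ubiquitin ligase of protein disposal, by 1.36 ± 0.21. The other Syvn1 probe was at -0.14. Xbp1 itself was at -1.21 and -1.01 (-1.11 ± 0.12). Dnajb11, Pdia4, Pdia3, Sel1l, Edem1, Calr and Ero1b fell too, and Hspa5, which encodes BiP, was at -0.94 and -0.55 and missed the threshold (-0.74 ± 0.25; limma, adjusted p = 0.115). Herpud1, which is induced by the same response and also by ATF4, rose, as given above. Without replicate 1, 3 members fell, and with slides as a block 5. Mitochondrial chaperones had 1 called member of 26, the protease subunit gene Clpx, which rose by 1.51 ± 0.19.

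Genes for building ribosomes fell by smaller amounts. The counts in this paragraph are to be read against all genes, of which 3.36% rose and 4.08% fell. Of 52 ribosome biogenesis genes, 12 fell and 1 rose, with a median of -0.27 (-1.09 with median centring). Nop2, a nucleolar RNA methyltransferase, stood at 10.74 and 10.55 in the controls and at 9.32 and 9.47 in the treated livers (-1.25 ± 0.12; limma, adjusted p = 0.00178). The RNA polymerase I subunit gene Polr1b fell by 0.69 ± 0.07, Pno1 by 0.80 ± 0.14 and Bysl by 0.71 ± 0.11. Ubtf, the polymerase I factor, rose by 1.32 ± 0.16 on its brightest probe, and its other probe was at 0.26. Without replicate 1, 3 of the 52 fell, without replicate 3, 6, and with slides as a block 0. Of 33 translation initiation factors 5 fell and 1 rose. The subunits of eIF2 and of its exchange factor, Eif2s1, Eif2b4 and Eif2b1, fell by 0.60 ± 0.13, 0.97 ± 0.16 and 0.56 ± 0.08, while Eif1 rose by 1.55 ± 0.24 with its other probe at 0.09. With the mean of all kept probes the call of Eif2s1 ended. The median of these 33 was -0.21, and -1.19 with median centring. None of the 33 fell with the software's ratios or with slides as a block. Ribosomal proteins themselves had 1 called member of 53, Rps18, which fell by 0.52 ± 0.12 and shares sequence with pseudogenes. Of 31 proteasome subunits 3 fell (Psma7, Psmc4 and Psmd7, by 0.61 to 0.63), with a median of -0.25 and -1.40 with median centring. None of the 31 fell with the software's ratios or with slides as a block. Of 23 alternatives Psmc4 kept its call in 18, Psma7 in 6 and Psmd7 in 5. Of 20 tRNA synthetases, Farsa fell by 0.54 ± 0.08, with its other probe at -0.19. Tars rose by 0.82 ± 0.19 with loess and stood at -0.28 with median centring.

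**Figure D4:**
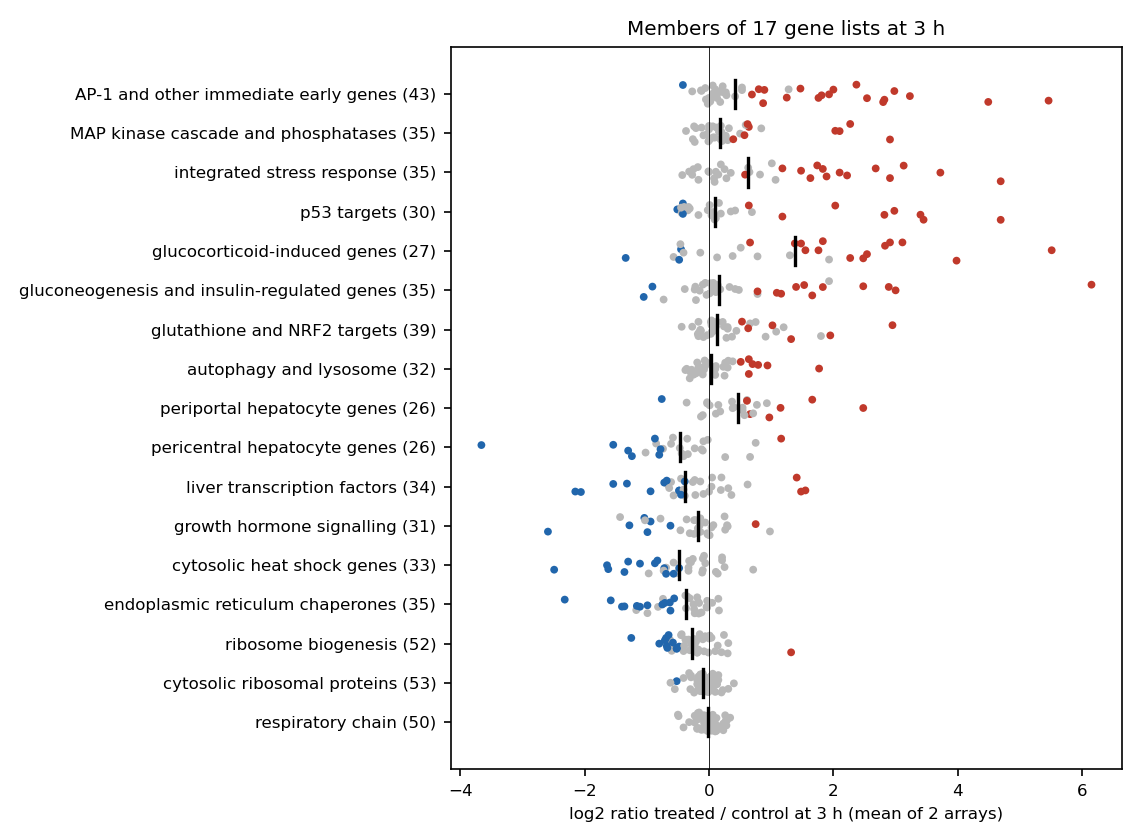
Log2 ratio at 3 h (x axis, mean of 2 arrays) of each tested member of 17 gene lists, with the number tested in brackets; red points rose, blue points fell, grey points were not called, and black bars mark list medians. The lists were chosen with earlier results of these data known. Among them the glucocorticoid-induced list has the highest median at 1.38, and the heat shock list the lowest at -0.48.

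Transcription factors of liver, not all of them specific to hepatocytes, fell more often than they rose. Of 34 liver transcription factors, 11 fell and 3 rose, with a median of -0.39 (-1.12 with median centring). Foxa2 stood at 10.69 and 11.17 in the controls and at 8.93 and 8.81 in the treated livers (-2.06 ± 0.15; limma, adjusted p = 0.000568). Foxa1 went from 9.43 and 10.18 to 7.82 and 7.49 (-2.15 ± 0.25), with the treated signal well above background on 1 array, and Foxa3 fell by 1.32 ± 0.29. These 3 forkhead factors open liver chromatin in development. Ahr, the receptor for dioxins, fell by 1.54 ± 0.20 on its brightest probe and was at 0.01 on the other. Onecut1, Nr1h4, Esrra, Nr2f2, Nr1h3, Nr3c1 and Gata4 made up the rest of the falls. Hnf4a, the central hepatocyte factor, was at 0.38 and 0.23 and was not called, nor was Cebpa at -0.57 ± 0.14. The members that rose were the stress-induced Cebpd (1.55 ± 0.21) and Cebpb (1.48 ± 0.22) and the clock repressor Nr1d1 (1.41 ± 0.22), and all 3 calls ended with median centring. Without replicate 1, and likewise without replicate 3, 4 of these factors fell. With the software's ratios 5 of the 34 fell, without background correction 6 and with slides as a block 3. The calls of Foxa1, Foxa2 and Ahr held in every alternative that gave a value. In whole liver, fewer cells of a type and less RNA per cell cannot be told apart.

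Cyp7a1, the enzyme that starts bile acid synthesis and limits its rate, was at 11.77 in both control livers and at 8.31 and 7.92 in the treated livers. It was the only fall past 8-fold (-3.66 ± 0.48; limma, adjusted p = 0.00536), and the call ended without either replicate. Its pathway was called about as often as all genes (7.45%). Of 37 genes of bile acid synthesis and transport tested, only Cyp7a1 and the bile acid receptor Nr1h4 (by 0.72 ± 0.17) fell. Cyp8b1 was at -0.38 ± 0.29 and Cyp27a1 at 0.26 ± 0.19. The export pump gene Abcc2 rose by 0.98 ± 0.10 with loess and was at -0.14 with median centring.

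Genes of the pericentral zone, where the drug is activated, and of the periportal zone had calls mostly in one direction each. Of 26 pericentral genes 7 fell and 1 rose (median -0.46, and -1.50 with median centring). The falls were Cyp7a1, Ahr, Tbx3 by 1.30 ± 0.25 and Rnf43 by 1.24 ± 0.16, followed by Sp5, Nkd1 and Lhpp. Rnf43, Sp5, Nkd1 and Tbx3 are known targets of WNT signalling, but Axin2, another, was at -0.02 ± 0.10 and Glul at -0.44 ± 0.39. Of 26 periportal genes 6 rose and 1 fell, with a median of 0.47 that turned to -0.59 with median centring. Besides Sds and Pck1 they were Hsd17b6 (1.15 ± 0.20), Hal (0.97 ± 0.21, and -0.22 with median centring), Cyp2f2 and Gldc. Nags, which makes the activator of the urea cycle, fell by 0.76 ± 0.17. Without replicate 1 the pericentral falls numbered 1 and the periportal rises 2, and without replicate 3 they numbered 2 and 3.

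Growth hormone acts on liver through JAK2 and STAT5B. Of 31 genes of this pathway, 6 fell and 1 rose, with a median of -0.18 (-1.14 with median centring). Cish, a direct STAT5 target that feeds back on the receptor, stood at 10.49 and 11.05 in the controls and at 8.18 and 8.19 in the treated livers (-2.59 ± 0.23; limma, adjusted p = 0.00122). Socs2 fell by 1.04 ± 0.14, Igfals, which carries IGF1 in plasma, by 0.99 ± 0.19, and Prlr, the prolactin receptor, by 1.28 ± 0.10 with its second probe at 0.02. Onecut1 and Socs3 were the other falls. Without either replicate 2 members fell. Stat5b rose by 0.75 ± 0.11 with loess and stood at -0.22 with median centring. Of 24 clock genes the output factor Dbp (by 1.95 ± 0.39, with ratios of -2.72 and -1.18) and Per2 fell, while Nfil3 (2.00 ± 0.19), which acts against Dbp on the same sites, Nr1d1 and Rora (0.77 ± 0.17, and -0.11 with median centring) rose.

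Enzymes and regulators that activate or conjugate acetaminophen were called about as often as all genes, of which 3.36% rose and 4.08% fell. Of 31 tested, 1 rose (Abcc2) and 1 fell (Ahr), and the median was 0.04 (-0.95 with median centring, under which 0 rose and 8 fell). Cyp2e1 stood at 16.35 and 16.42 in the controls and at 15.59 and 16.02 in the treated livers, a ratio of -0.58 ± 0.22 (limma, adjusted p = 0.174). Cyp1a2 was at 0.66 ± 0.29, Cyp3a11 at 0.27 ± 0.23 and their electron donor Por at 0.38 ± 0.31, none of them called. Of 42 genes of amino acid catabolism and the urea cycle, 5 rose and 1 fell, among them Amdhd1 at 0.75 ± 0.18 and Glud1 at 0.62 ± 0.14, which turned to -0.37 and -0.58 with median centring. The 50 respiratory chain genes had no call in the limma fit, with 5 higher and 4 lower at an unadjusted p up to 0.05, beside 2927 and 2941 of all 24012 genes. The members farthest from 0 were Ndufb3 at -0.50 ± 0.29 and Ndufa4 at -0.49 ± 0.15.

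Cytokine, NF-kB, interferon and acute phase genes were tested as separate lists, to be read against the 7.45% called among all genes. Of 32 cytokines and chemokines 0 rose and 1 fell, Csf1 by 0.75 ± 0.18, and at an unadjusted p up to 0.05 2 were higher and 2 lower. Only 10 of the 32 were well above background in both channels of both arrays, so few calls need not mean no change. Tnf was at -0.07 ± 0.06, Il1b at -0.22 ± 0.08 and Il6 at -0.03 ± 0.08, each with the treated signal well above background on only 1 array. Of 26 NF-kB feedback genes 4 fell and 1 rose. Bcl3, an atypical inhibitor of NF-kB, went from 11.29 and 11.14 to 9.20 and 9.21 (-2.01 ± 0.12; limma, adjusted p = 0.000256), Traf3 fell by 0.64 ± 0.11, Tnfaip2 by 0.62 ± 0.09 and Myd88 by 0.38 ± 0.08, while the adhesion gene Vcam1 rose by 1.03 ± 0.19. Of 39 interferon response genes 4 fell and 1 rose. The immunity GTPases Igtp and Irgm1 fell by 1.08 ± 0.25 and 1.04 ± 0.14 and Irf1 by 0.97 ± 0.13, with larger ratios on replicate 1 (-1.61, -1.30 and -1.21) than on replicate 3 (-0.54, -0.77 and -0.74). Without replicate 1 none of the interferon genes fell. Irf8, typical of myeloid cells, rose by 0.62 ± 0.12, a call that ended with median centring, the software's ratios and slides as a block. Acute phase proteins had 2 falls among 34, Socs3 by 0.62 ± 0.11 and Apcs by 0.47 ± 0.08. In the order given, the medians of these lists were -0.06, -0.02, -0.22 and 0.06. With median centring they were -0.05, -0.24, -0.85 and -1.03.

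Markers of liver cell types gave few calls, to be read against the 7.45% called among all genes and the shortness of the lists. None of 10 hepatocyte, 7 cholangiocyte, 10 stellate cell, 11 Kupffer cell, 8 monocyte and macrophage or 9 neutrophil markers was called by limma. Of these, in the same order, 10, 2, 7, 10, 2 and 3 were well above background in both channels of both arrays. Absent calls among dim markers need not mean no change. At an unadjusted p up to 0.05 their higher and lower counts were 3 and 1, 1 and 2, 0 and 1, 0 and 0, 0 and 0, and 1 and 0. The 11 Kupffer cell ratios were all above 0, from 0.03 to 0.62, with a median of 0.32 that turned to -0.46 with median centring. Of 11 markers of sinusoidal endothelium 2 fell, Gpr182 with ratios of -1.24 and -1.41 (-1.33 ± 0.20) and Oit3 by 0.50 ± 0.10, while the defining scavenger receptor genes Stab1 and Stab2 were at 0.00 and -0.10. Of 13 lymphocyte markers Cd22 rose by 0.34 ± 0.06 and stood at -0.12 with median centring. The 5 largest gaps between the arrays were those of the 5 adult globin genes, which mark red cells. Their median level was 14.62 in the control liver and 12.30 in the treated liver of replicate 1, and 12.26 and 12.98 in those of replicate 3, so the control liver of replicate 1 stood apart from the other 3. Ratios were -2.67 and 0.64 for Hba-a1 and -2.86 and 0.81 for Hbb-bs, and no globin gene was called. The globin genes are near-identical copies, so their probes may share signal. The part that blood in this control liver plays in the ratios of replicate 1 was not tested.

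Set against 8 h, the 3 h ratio was higher for 70 genes (0.292% of those tested) and lower for 128 (0.533%). Dye effects shared by all arrays cancel in these differences, and each time point carries its own controls. Of 35 gluconeogenic and insulin-regulated genes 4 were higher at 3 h than at 8 h and 0 lower. G6pc had ratios of 2.72 and 3.06 at 3 h, 0.28 and 0.43 at 8 h and -2.50 and -1.71 at 24 h, a difference of 2.53 between 3 h and 8 h (limma, adjusted p = 0.0366). Pck1 (2.29), Sds (1.65) and Ppargc1a (1.58) differed in the same direction. With slides as a block no gene differed between 3 h and 8 h past the threshold, so the calls of these 4 genes ended. Of 32 cytokine and chemokine genes 2 were lower at 3 h than at 8 h. Cxcl10 had ratios of -0.67 and -0.37 at 3 h and of 5.21 and 4.19 at 8 h, a difference of -5.22 (limma, adjusted p = 0.00487), and Cxcl1 one of -3.34. Bcl3 was below control at 3 h and above it at 8 h, at 1.14 and 1.16 (-3.16). Hsph1, below control at 3 h, had ratios of 0.69 and 0.36 at 8 h (-3.02). By list, 8 of 33 heat shock genes were lower at 3 h than at 8 h, with 0 higher. Of 52 ribosome biogenesis genes 11 were lower, of 43 immediate early genes 7, of 34 acute phase genes 5 and of 35 endoplasmic reticulum chaperones 4, with 0 higher in each, and of 39 NRF2 genes 1 was lower, Txnrd1 by 1.96. In contrast, Igfbp1, Mt2, Gdf15 and Trp53inp1 did not differ between 3 h and 8 h past the threshold (0.94, 0.63, 0.38 and -0.07).

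Set against 24 h, 1321 genes were higher at 3 h (5.5%) and 842 lower (3.51%). Rgs16, a regulator of G protein signalling, had ratios of 4.70 and 4.26 at 3 h and of -0.75 and -0.74 at 24 h (difference 5.23; limma, adjusted p = 0.000439). Lpin1 (5.06), G6pc (4.99) and Sds (4.96) showed the same turn from above control to below it. In the other direction, Hsp90aa1 went from -1.84 and -1.40 at 3 h to 3.53 and 2.40 at 24 h (difference -4.59), followed by Hsph1 (-4.09), Creld2 (-3.90) and Lor (-3.26). Of the genes that rose at 3 h, 376 were higher at 3 h than at 24 h and 1 was lower. Of those that fell, 383 were lower and 18 higher. Among the lists, 33 of 42 amino acid catabolism genes, 32 of 50 respiratory chain genes and 18 of 26 periportal genes had a higher ratio at 3 h, with 0 lower in each, while 19 of 31 proteasome genes and 16 of 33 heat shock genes had a lower one, with 0 higher. These counts depend on the scaling, since median centring left 7 genes higher and 2 lower at 3 h than at 24 h and 0 between 3 h and 8 h. Without replicate 1 of 3 h the counts against 8 h were 1 higher and 3 lower, and without replicate 2 of 8 h 0 and 8. Against 24 h they were 765 and 308 without replicate 1 of 3 h, 1094 and 395 without replicate 3 of 3 h, and 662 and 530 without replicate 3 of 24 h.

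**Figure D5:**
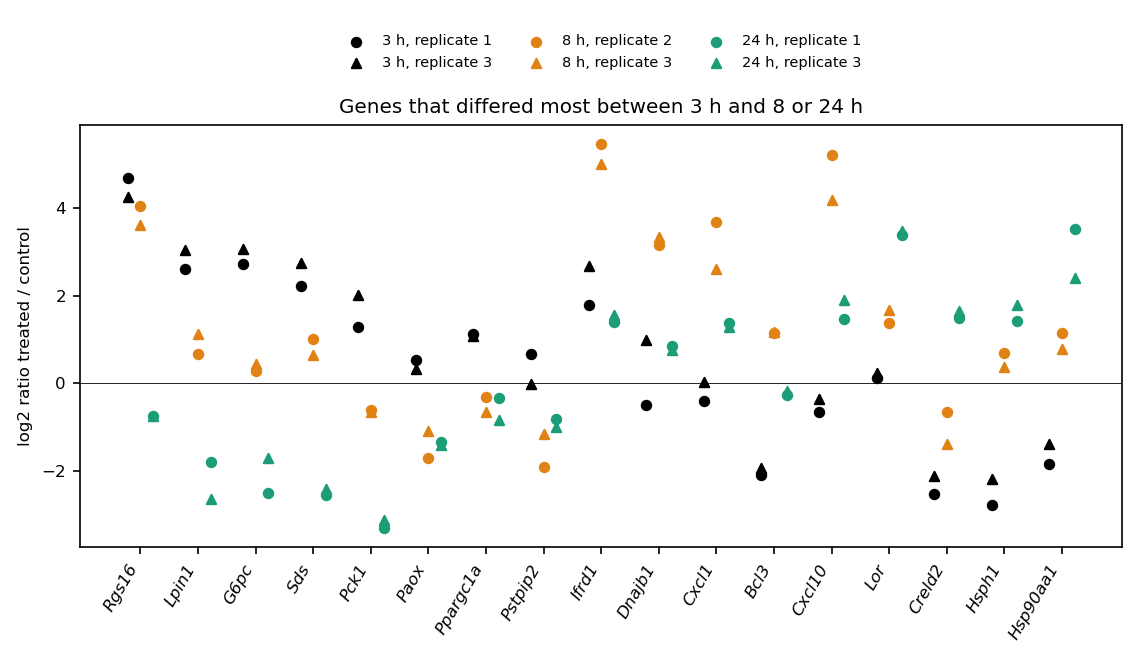
Log2 ratio of treated over control (y axis) at 3 h (black), 8 h (orange) and 24 h (green) for the 17 genes that differed most between 3 h and a later time, each point 1 array. Rgs16, at the left, was above control at 3 h (4.70 and 4.26) and below it at 24 h (-0.75 and -0.74), whereas Hsp90aa1, at the right, was below control at 3 h (-1.84 and -1.40) and above it at 24 h (3.53 and 2.40).

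Several of the largest changes belonged to no list. Slc25a47, a mitochondrial carrier found mainly in liver, went from 12.06 and 12.62 to 15.33 and 15.56 (8.59-fold; limma, adjusted p = 9.09e-05). It had ratios of 3.08 and 3.00 at 8 h and stood at -1.38 and -1.30 at 24 h. Among falls, Clec2d, a ligand of natural killer cell receptors, went from 10.24 and 10.41 to 8.17 and 7.59 (-2.44 ± 0.24). Phlda1 went from 12.37 and 13.14 to 10.07 and 10.68 (-2.38 ± 0.20), whereas its ratios at 8 h were -0.13 and 0.02. Inhbe, which encodes the liver activin E subunit, fell by 1.81 ± 0.29, Tmem25 by 1.84 ± 0.35, Nrep by 1.95 ± 0.41 and the uncharacterised 1810019D21Rik by 1.99 ± 0.17. Of the 138 named genes called at 3 h, 32 kept their call in every alternative that gave a value.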

How the data were processed

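Spot mean and local background intensities, and the log10 ratio of red over green after the scanner's own background subtraction and dye normalization, came from Agilent Feature Extraction 10.7.3.1, per the file headers. The authors' deposited value table, treated as a score, was 1.44 times that log10 ratio on every array and so lies on no usual log base. It was rescaled before use as an alternative.

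From the intensities, background was corrected with normexp (offset 50), ratios were normalised by loess within arrays with control and flagged spots at weight 0, and spots of a probe were averaged, all with limma 3.58.1 in R 4.3.3. A probe was kept where, for at least 1 time point, 1 channel stood well above background on both of its arrays (29631 of 39429), and the brightest kept probe stood for its gene, giving 24012 genes, of which 17639 had a RefSeq symbol. One model over 10 arrays, with a coefficient for each of the 5 time points and 5 residual degrees of freedom, gave every test, checked on simulated data. Arrays measure intensity and hold no read depth. Their number limits the precision.

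Members and gene lists were chosen with earlier results of these data known. Genes described are the 15 largest rises and falls, up to 4 called members of each list in each direction, the largest of lists without calls, markers, the largest differences from 8 h and 24 h, the 5 largest gaps between arrays, and a set of 15 drug and stress genes. Other list members quoted, and genes shown with motif sites, were chosen after their values were seen. Alternatives were no background correction, an offset of 0, median centring, the software's ratios, the value table, other probe filters, the mean of probes, an intensity trend, blocks for replicate number, scan day and slide, only the 3 h arrays, and each array left out. The header coordinates of probes are on mm9, and exon or UTR annotation was not used here.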

Additional observations from a re-analysis of the deposited data

Results flagged for a closer look

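Results are given here because the test of the difference between time points was passed (limma, Benjamini-Hochberg adjusted over all genes), and each value is a difference of log2 ratios. Between 3 h and 8 h, 70 genes were higher and 128 lower at 3 h. The largest differences with a higher ratio at 3 h were 2.53 for G6pc, 2.29 for Pck1, 1.86 for Pstpip2, an adaptor protein of macrophages, 1.83 for Paox, a polyamine oxidase, 1.65 for Sds and 1.58 for Ppargc1a. Those with a lower ratio were -5.22 for Cxcl10, -3.34 for Cxcl1, -3.16 for Bcl3, -3.02 for Hsph1, -3.01 for Ifrd1 and -3.0 for Dnajb1, an HSP40 cochaperone. With slides as a block none of these differences passed the threshold.

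Between 3 h and 24 h, 1321 genes were higher and 842 lower at 3 h. The largest were 5.23 for Rgs16, 5.06 for Lpin1, 4.99 for G6pc and 4.96 for Sds, and in the other direction -4.59 for Hsp90aa1, -4.09 for Hsph1, -3.90 for Creld2 and -3.26 for Lor, which encodes loricrin. What sets these differences was not tested.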

How the results depend on the processing

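Of the 138 named genes called at 3 h, 32 kept their call in each of up to 23 alternatives, among them Igfbp1, Mt1, Mt2, Egr1, Jun, Gdf15, Chac1, Trib3, Hmox1, Hsph1, Creld2 and Foxa2. With median centring 5020 genes fell, and 11 named genes that rose with loess changed sign: Abcc2 (-0.14), Tars (-0.28), Stat5b (-0.22), Rora (-0.11), Gabarapl1 (-0.27), Map1lc3b (-0.31), Sqstm1 (-0.33), Hal (-0.22), Amdhd1 (-0.37), Glud1 (-0.58) and Cd22 (-0.12). The software's ratios and the value table each gave 487 rises and 576 falls, slides as a block 179 and 140, and the 3 h arrays alone 410 and 482. Leaving out 1 array gave 264 to 884 rises and 141 to 1148 falls, with the lowest counts without replicate 1 of 3 h. The lone array left at a time is then assumed to vary like the other times.

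Of the differences from 8 h, counts of genes higher and lower at 3 h were 128 and 270 without background correction, 34 and 77 with an offset of 0, 0 and 0 with median centring, 8 and 29 with the software's ratios or the value table, 109 and 193 with the stricter filter, 32 and 83 with scan day as a block, and 0 and 0 with slides as a block. Leaving out 1 array gave 0 to 393 and 3 to 156. Differences from 24 h numbered 1985 and 1333 without background correction, 7 and 2 with median centring, 420 and 154 with slides as a block, and 662 to 1398 and 308 to 978 with 1 array left out. The cause of these shifts was not tested.

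Whether replicate numbers pair the samples cannot be told here, since with 2 arrays per time point the deviations from a time mean mirror each other. All arrays numbered 3 were scanned on 1 day and the others on another, so this number and that day cannot be told apart. Deviations of same-numbered arrays from their time means correlated with those of 3 h at -0.074 for 8 h, -0.0371 for 24 h, 0.178 for 48 h and 0.216 for 72 h. Among the later times they ran from -0.124 (8 h with 72 h) to 0.294 (24 h with 48 h). With the replicate number as a block 548 genes rose and 664 fell at 3 h, 0 were higher and 2 lower than at 8 h, and 1377 higher and 971 lower than at 24 h. Number 2 belongs to 1 array only, at 8 h, so in this fit the difference from 8 h rests on the other 8 h array. Dim signal limits the rest: in the treated channel of replicate 1, 45.6% of spots were well above background.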
